A study of Saccharomyces cerevisiae with 59 samples.

Results

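The proteasome genes of budding yeast were followed through a dilution series of bulk RNA. Every gene whose standard symbol in the R64 genome annotation is PRE, PUP, RPN or RPT followed by digits alone was taken, together with SCL1, which encodes an alpha-ring subunit but carries another name. The rule used names only and no measured value, and it gave 34 of the 6420 listed genes. Of these, 14 encode subunits of the 20S core, 18 encode subunits of the 19S cap and 2 encode no stable subunit: RPN4, a transcription factor, and RPN14, an assembly chaperone. The lid subunit Sem1 falls outside the rule by its name and is given with the associated genes below.

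All libraries came from spheroplasts (cells stripped of their wall with Zymolyase) of strain S288C, grown from a single clone and held under amino acid starvation (AAS, S medium lacking amino acids with sorbitol). Bulk RNA was diluted, and 10 libraries each were made at 5, 10 and 20 pg, 7 at 100 pg, 8 at 1 ng and 9 at 10 ng; these numbers are the n of every mean below. The libraries followed the oligo-dT protocol that the study used for single cells, with ERCC spike-in RNA in proportion to the input. Another 5 libraries, titled H6P11, H6P12, H6P14, H6P15 and H6P16, carry the same strain and treatment labels but no amount, and enter no comparison. No untreated library is in the series, so the values bear on the input amount and not on starvation; the labels name no separate cultures for the libraries, so that p-values reflect library-to-library spread, possibly technical.

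The proteasome degrades proteins that have been tagged with ubiquitin. Its 20S core is a barrel of alpha rings, which gate the entrance, around beta rings, which hold the active sites, and the 19S cap recognises, unfolds and feeds the substrate. In yeast the genes are coordinated by Rpn4, a short-lived activator that is itself a substrate of the proteasome and that binds a promoter element known as PACE. Amino acids released by the proteasome are one source for new protein synthesis when cells are starved of them.

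The element, known as the one that Rpn4 binds at these genes, was looked for in the genome sequence as a description of the members' promoters. The letters GGTGGCAAA, or TTTGCCACC on the other strand, were searched from 250 bases before to 50 bases after the start codon. They were found in 27 of the 34 members (79.4%) and in 71 of 5979 promoters of the same length (1.19%). The 5979 promoters include those of the members. With the inner letters GTGGCAAA alone, which lie within the longer motif, the counts were 30 of 34 members and 143 of 5979 promoters (2.39%). All 30 sites lay 84 to 183 bases before the start codon (median 126). The members without either form were RPN10, RPN13, RPN14 and RPN4 itself. A match of letters is a description and not evidence of binding in these cells.

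The stretches below show the element (in capitals) with 25 bases on each side, read 5′ to 3′ on the strand of the gene from the RefSeq R64 genome. SCL1 and PRE3 are shown as 2 of the members highest at 10 ng, PUP1 as an example with the inner letters alone, RPT6 as the most abundant ATPase, and RPN1, RPN2 and RPN3 because they carry the same element but were among the members least recovered at 10 ng (below). In order, they lie at chrVII:475322-475380, chrX:435020-435078, chrXV:631876-631933, chrVII:411337-411395, chrVIII:164823-164881, chrIX:220786-220844 and chrV:196828-196886. The genes for SCL1, PUP1, RPT6, RPN1 and RPN2 are on the minus strand.
SCL1: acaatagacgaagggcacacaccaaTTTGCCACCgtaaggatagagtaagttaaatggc
PRE3: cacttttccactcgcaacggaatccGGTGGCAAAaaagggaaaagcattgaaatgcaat
PUP1: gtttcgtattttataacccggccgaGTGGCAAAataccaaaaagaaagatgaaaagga
RPT6: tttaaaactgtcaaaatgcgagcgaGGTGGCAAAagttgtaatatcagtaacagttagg
RPN1: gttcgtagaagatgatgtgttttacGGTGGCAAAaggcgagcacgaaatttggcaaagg
RPN2: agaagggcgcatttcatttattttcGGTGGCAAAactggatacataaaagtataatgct
RPN3: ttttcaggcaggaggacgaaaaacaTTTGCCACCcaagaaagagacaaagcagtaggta

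The grouped libraries held 290434 to 2452562 gene counts, and the H6P libraries 6407797 to 14337575. Levels are given as CPM, a gene's share of the library's gene counts on the usual scale, and a gene was taken as detected in a library with at least 5 counts. The alpha-cell markers MF(ALPHA)1, MF(ALPHA)2, STE3 and SAG1 summed to 361 to 7536 CPM in the grouped libraries, against 0 to 135 CPM for 7 markers of a cells and 0 to 923 CPM for 7 genes of sporulating diploids. S288C is a strain of the alpha mating type. The 5 pg replicate 2 stood apart, with 3244 genes detected against 814 to 1707 in the other 5 pg libraries, and the number detected, the summed level and the spread at 5 pg are given with and without it. Without that library the 5 pg median of 18 of the 34 genes moved by over 1.5 times, 17 of them to a lower value and 1 (RPN7) to a higher one; for example, that of PRE10 went from 509 to 67.8 CPM and that of RPT3 from 73.3 to 5.52 CPM. The medians of single genes at 5 pg below include it. Libraries numbered 1 to 4 in their titles also differed from those with higher numbers, as described below; the labels do not say what the number marks.

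At 5 pg each library held a different part of the proteasome genes, and the full set was approached at 20 pg. Of the 34 genes, 7 to 31 were detected at 5 pg (mean 17.4 ± 6.29, SD), which became 7 to 23 (mean 15.9 ± 4.34, SD, n = 9) without replicate 2. With 10 pg the number was 19 to 30 (25.6 ± 4.03), with 20 pg 29 to 33 (31.1 ± 1.197) and with 100 pg 29 to 34 (31.7 ± 1.89). With 1 ng it was 31 to 33 (32 ± 1.07) and with 10 ng 31 or 32 (31.2 ± 0.44). The 5 pg libraries therefore overlapped with those of 10 pg and, through replicate 2 alone, with those from 20 pg upward. The mean share detected was 51.2% of the members at 5 pg and 91.8% at 10 ng, whereas over all listed genes it was 23.4% and 44.5%. No p-value was computed for this count over the members. No member was detected in all 10 libraries of 5 pg, 5 members were at 10 pg, 25 at 20 pg, 28 in all 7 libraries of 100 pg, 30 at 1 ng and 31 at 10 ng.

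**Figure D1:**
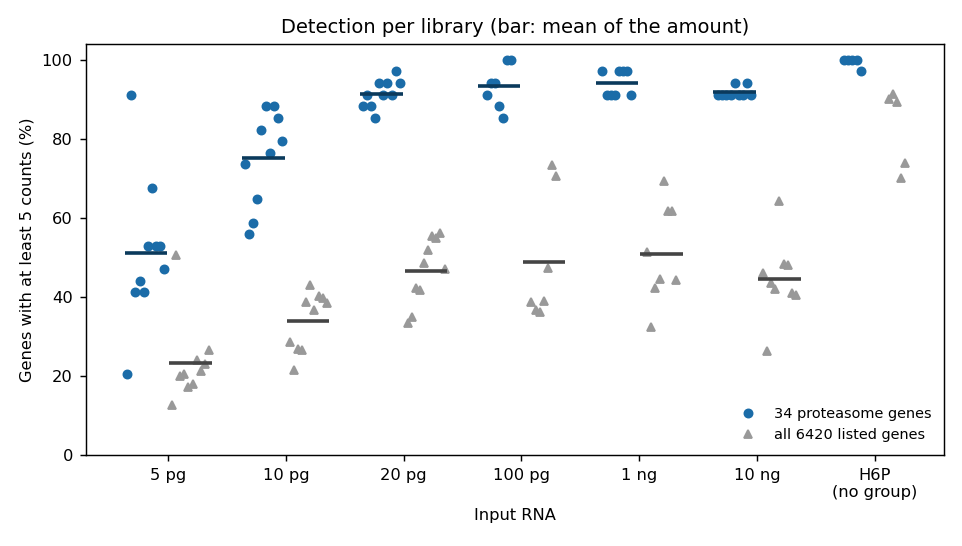
Share of genes with at least 5 counts (y axis, %) in each library by input RNA (x axis): circles are the 34 proteasome genes, triangles all 6420 listed genes, and bars the mean of an amount; the H6P libraries have no group and no bar. The members rise from a mean of 51.2% at 5 pg to 91.5% at 20 pg and then stay between 91.8% and 94.1%, and replicate 2 is the single 5 pg library at 31 members.

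Which members were found at 5 pg changed from library to library. The most abundant member was RPT4 in replicate 1 (52.4% of all proteasome counts of that library), PRE10 in replicate 2 (44.4%), RPT1 in replicate 3 (79.4%), RPT6 in replicate 4 (43.1%) and RPN10 in replicate 5 (49.5%). In replicates 6 to 10 it was PRE2 (26.2%), PUP1 (13.7%), SCL1 (24.5%), RPN3 (18.9%) and again PUP1 (21.1%). At 10 ng the leading member was SCL1, PRE10 or RPT6 in all 9 libraries, with 7.94% to 9.64% of the proteasome counts. The 3 most abundant members of a library together held 62.7% ± 18.2 (SD) of its proteasome counts with 5 pg (63% ± 19.3, n = 9, without replicate 2), 42.2% ± 15.9 with 10 pg and 32.3% ± 5.43 with 20 pg. This share was 30.4% ± 8.78 with 100 pg and lowest with 1 ng (23.7% ± 1.45) and 10 ng (24.2% ± 0.834).

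The spread between libraries of an amount was widest at 5 pg and narrowest at 10 ng, though not smaller at 100 pg than at 20 pg. The coefficient of variation (SD divided by mean) of a member across libraries had a median of 1.997 at 5 pg, 1.22 at 10 pg, 0.828 at 20 pg, 0.902 at 100 pg, 0.366 at 1 ng and 0.255 at 10 ng. Without replicate 2 the 5 pg median was 2.002. Over 4182 genes detected in at least 20% of the grouped libraries the medians were 2.32, 1.77, 1.31, 1.14, 0.774 and 0.560. The lowest of a single member at 10 ng was 0.141 and the highest was 3, that of RPN1, which had counts in 1 library only.

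**Figure D2:**
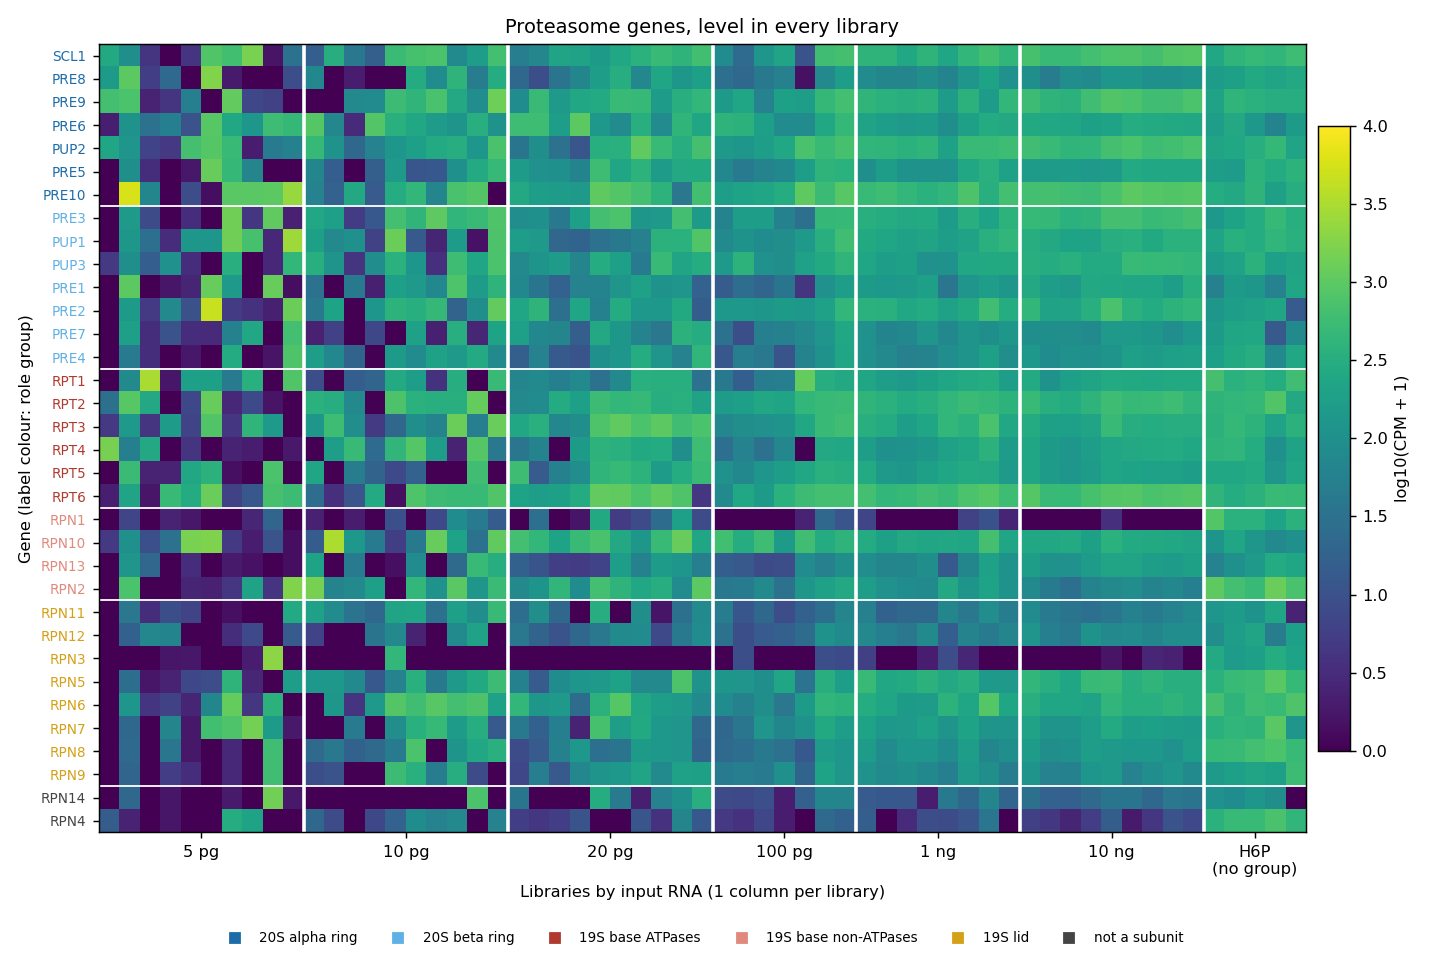
Level of each of the 34 genes (rows, label colour by role group) in each of the 59 libraries (columns, by input RNA), as log10(CPM + 1) on the colour scale. The 5 pg block is a mosaic in which PRE10 reaches 5624 CPM in replicate 2 and 0 in replicate 1, the 10 ng block is even, and RPN1 and RPN3 stay dark in most grouped libraries but not in the H6P libraries.

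Of the 7 alpha-ring genes 4 were among the 5 highest members at 10 ng, while the other 3 ranked lower. Per kilobase of coding length, the 4 highest members were SCL1 (904 ± 179 CPM per kb, SD, n = 9), PRE10 (858 ± 166), PRE3 (805 ± 173) and PRE9 (769 ± 193), of which SCL1, PRE10 and PRE9 encode alpha-ring subunits and PRE3 a catalytic beta subunit. These neighbours differed by less than 1 SD. PUP2 (739 ± 147), PUP3 (611 ± 143) and RPT6 (606 ± 125) followed, and RPT6 was the highest cap gene. Members of one stoichiometric complex thus spanned a wide range on this scale: PRE8, another alpha-ring gene, had 132 ± 33.8 CPM per kb and RPN11, the lid deubiquitinase, 55.7 ± 21.8 (all n = 9). At the bottom stood RPN2 (21.9 ± 7.003), RPN14 (21.9 ± 6.57), RPN4 (3.36 ± 2.58), RPN3 (0.259 ± 0.423) and RPN1 (0.0946 ± 0.284). The study reports that coverage of genes fell off toward their 5′ ends. The bearing of this on the order was not tested, and CPM per kb need not give transcript abundance.

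The catalytic beta subunits were followed by name. PRE2, which encodes the subunit with chymotrypsin-like activity, ranged at 5 pg from 0 to 4651 CPM with a median of 6.44 (4.21 without replicate 2), the highest value being that of replicate 6. At 10 pg it ranged from 0 to 1109 CPM (median 165), at 20 pg from 14.3 to 399.7 (median 180), at 100 pg from 128 to 439.7 (median 137), at 1 ng from 197 to 600.2 (median 292) and at 10 ng from 199.7 to 706 (median 356). The amounts overlapped throughout, and from 100 pg upward no PRE2 library was below 128 CPM.

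PUP1, the gene for the trypsin-like subunit, had 0 to 2586 CPM at 5 pg (median 127), 0.574 to 1260 at 10 pg (median 87.5), 18.3 to 817 at 20 pg (median 99.8), 81.3 to 599 at 100 pg (median 108), 165 to 422 at 1 ng (median 219) and 198 to 355 at 10 ng (median 307). PRE3, the gene for the caspase-like subunit and the only member with an intron in the annotation used here, had 0 to 1333 CPM at 5 pg (median 2.85), 4.19 to 1003 at 10 pg (median 419), 41.0 to 728 at 20 pg (median 148), 28.5 to 485 at 100 pg (median 166), 161 to 380 at 1 ng (median 291) and 352 to 664 at 10 ng (median 508). For both genes the range was widest at 5 pg, and no library from 20 pg upward lay at 0.

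The cap ATPases, which form the ring that unfolds the substrate, are encoded by RPT1 to RPT6. RPT6 had 0.762 to 1234 CPM at 5 pg (median 256), 0.447 to 832 at 10 pg (median 384), 3.36 to 1106 at 20 pg (median 517), 81.3 to 632 at 100 pg (median 357), 440 to 896 at 1 ng (median 577) and 484 to 874 at 10 ng (median 787). RPT4 was found more erratically, with 3 of 10 libraries detecting it at 5 pg, 8 of 10 at 10 pg, 9 of 10 at 20 pg and 6 of 7 at 100 pg. Its single 100 pg library without a count was replicate 5, while replicates 7 and 10 of that amount had 261 and 246 CPM. At 10 ng the medians of RPT1 to RPT5 lay between 194 CPM (RPT5) and 478 CPM (RPT2), all below that of RPT6.

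Among the lid genes, RPN11, the gene of the enzyme that cuts ubiquitin from the substrate, did not follow the order of the inputs. It was detected in 4 of 10 libraries at 5 pg, in all 10 at 10 pg (21.9 to 505 CPM, median 137) and in only 7 of 10 at 20 pg (0 to 309 CPM, median 28.0), where replicates 4 and 6 had no count. From 100 pg upward every library held it, at 7.94 to 91.9 CPM. RPN5 and RPN6, the lid genes with the highest medians at 10 ng, had 231 to 527 CPM (median 331) and 200.3 to 435 CPM (median 326) there, against 0 to 405 CPM (median 3.99, or 1.66 without replicate 2) and 0 to 1138 CPM (median 4.23) at 5 pg.

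RPN10 and RPN14 showed how far a low input could depart from the level at 10 ng. RPN10, which encodes a ubiquitin receptor of the cap, had 188 to 362 CPM at 10 ng (median 254), while at 10 pg it ranged from 4.47 to 3258 CPM (median 90.1) and was above 1000 CPM in replicates 2, 7 and 10. RPN14 had no count in 9 of 10 libraries of 10 pg and 723 CPM in replicate 9, against 15.7 to 37.8 CPM in the libraries of 10 ng.

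The 1 ng and 10 ng libraries, the pair with the least spread, were compared to ask whether the members kept their relative level between the highest inputs. Most core genes, though not all, were called higher at 10 ng, and the long cap gene RPN2 was called lower. Of 32 members tested with edgeR, 12 were called higher at 10 ng (Benjamini-Hochberg adjusted p under 0.05 over 3927 genes) and 1 lower, where the background was 15.9% of all tested genes higher and 20.8% lower. DESeq2 called 10 higher and 1 lower, against 13.9% and 25.2% of all genes. RPN1 and RPN3 were too low to be tested. The median log2 fold change was 0.51 over the members and -0.23 over all tested genes, so the fold changes below, coded as 10 ng minus 1 ng, should be read against a general shift of -0.23.

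Of the 14 core genes 9 were called higher, against 3 of the 16 cap genes tested. The core genes called were SCL1, PRE9, PRE6, PUP2 and PRE10 of the alpha ring and PRE3, PUP3, PRE1 and PRE4 of the beta ring. The cap genes called were RPT4 and RPT6, which encode ATPases that unfold substrates, and RPN13, which encodes a ubiquitin receptor. Neither RPN4 (log2 fold change -0.55 ± 0.60, SE) nor RPN14 (0.66 ± 0.37) was called, with adjusted p from edgeR of 0.466 and 0.157.

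PUP3, which encodes a beta subunit without an active site of its own, was the only member whose groups did not overlap. How many of all tested genes separated in this way was not counted, so this does not set PUP3 apart from other genes. Its level was 105.2 to 269 CPM at 1 ng (median 211, n = 8) and 277 to 489 CPM at 10 ng (median 339, n = 9). The log2 fold change was 1.17 ± 0.24 (SE; edgeR adjusted p = 0.00179). RPN13, the shortest member with 471 nt of coding sequence, was 12.4 to 194 CPM (median 79.4) and then 103 to 218 CPM (median 170), which gave 1.16 ± 0.30 on the log2 scale (edgeR adjusted p = 0.00701). For RPN13 only 2 of the 9 libraries of 10 ng lay above every 1 ng library, since replicate 9 of 1 ng had 194 CPM.

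SCL1 was at 232 to 612 CPM at 1 ng (median 402) and at 489.8 to 884 CPM at 10 ng (median 697), with 7 of 9 libraries above every 1 ng library (log2 fold change 1.02 ± 0.20, edgeR adjusted p = 0.000957). PRE3 rose in the same way, with 8 of 9 libraries of 10 ng above every 1 ng library (1.03 ± 0.23, edgeR adjusted p = 0.0027). PRE9, the one alpha-ring gene that yeast can lose and live, was at 160 to 448 CPM (median 362) and then at 371 to 823 CPM (median 597), 7 of 9 being higher (0.97 ± 0.27, edgeR adjusted p = 0.00902). PRE1, a beta-ring gene, was at 35.6 to 182 CPM (median 138) and then at 144 to 331 CPM (median 228), 6 of 9 being higher (0.90 ± 0.28, edgeR adjusted p = 0.0165). The other 6 genes called higher, among them PRE10 (0.75 ± 0.23, edgeR adjusted p = 0.0169), had log2 fold changes of 0.51 to 0.82. Libraries of 10 ng above every 1 ng library numbered 5 of 9 for PUP2 and 4 of 9 for PRE10. They numbered 1 of 9 for PRE6 and PRE4 and 0 of 9 for RPT4 and RPT6.

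RPN2, the scaffold of the cap base, was the only member called lower at 10 ng. It stood at 79.5 to 261 CPM at 1 ng (median 115) and at 27.4 to 89.99 CPM at 10 ng (median 60.6), and the ranges met only between 79.5 and 89.99 CPM. The log2 fold change was -0.89 ± 0.21 (edgeR adjusted p = 0.00321). The call remained when any one of the 17 libraries was left out.

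The catalytic genes PUP1 (0.40 ± 0.21) and PRE2 (0.39 ± 0.20) did not pass the test, with edgeR adjusted p of 0.134 and 0.121. SCL1, PRE9, PRE3, PUP3, PRE4 and RPN13 kept their call when any single library was left out, while PRE6, PUP2, PRE10, PRE1, RPT4 and RPT6 lost it in at least 2 of 17 such fits. Without 10 ng replicate 4 the number called higher was 7. Among libraries numbered 1 to 4 alone 6 members were called higher and 1 lower. Among those with higher numbers no member was called, and in that set 26 and 57 of 4598 genes tested were called higher and lower. The share of all genes called is not given for libraries 1 to 4 or for the fit without 10 ng replicate 4. Whether the members moved more than all genes in these 2 fits is thus not shown.

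Coding length moved with this contrast over the whole transcriptome, and the members are given beside all genes of like length. Among all tested genes under 1000 nt 37.03% were called higher at 10 ng, and the members of this length gave 10 of 18. Between 1000 and 1500 nt the share was 6.24%, with 2 of 12 members. Over 1500 nt 0.137% were called higher and 45.8% lower, and of the 2 members tested, RPN2 and RPN4, RPN2 was called lower. Core genes have 597 to 867 nt of coding sequence and the ATPase genes 1218 to 1404 nt. The 4 cap genes under 1000 nt (RPN10, RPN11, RPN12 and RPN13) gave 1 call, against 9 of the 14 core genes. The part of length in the calls was not tested.

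**Figure D3:**
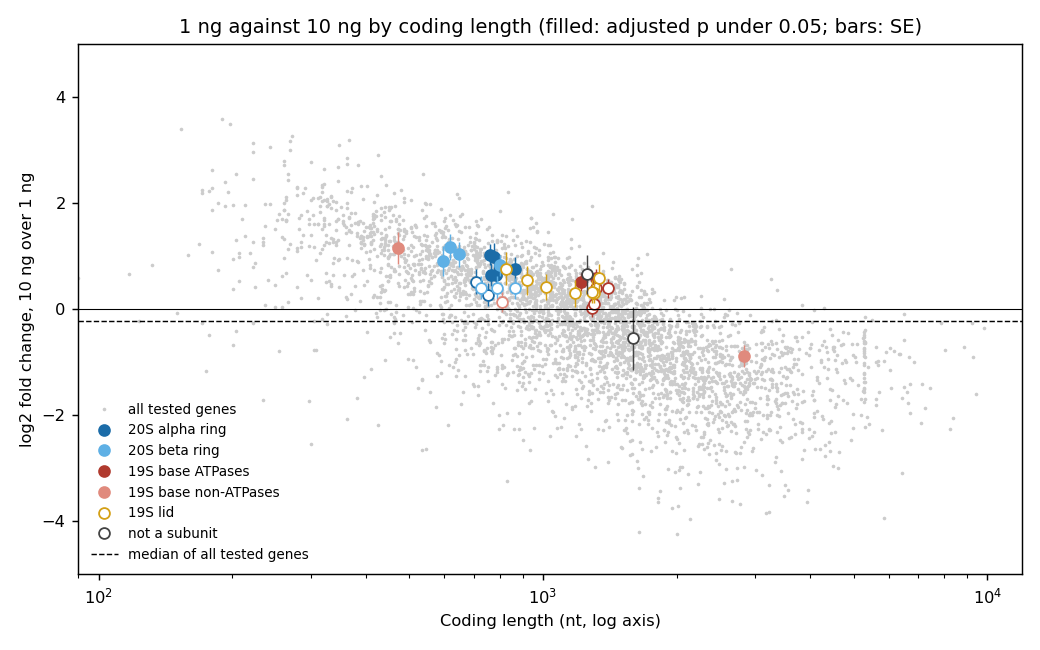
Log2 fold change from 1 ng to 10 ng (y axis) against coding length (x axis, log scale) for all tested genes (grey) and the 32 members tested (coloured by role, filled where the adjusted p is under 0.05, bars are SE); the dashed line is the median of all tested genes, -0.23, and 3 genes lie outside the plotted range. Members under 1000 nt sit above 0 with the other short genes, and RPN2, at 2838 nt, sits at -0.89.

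Core and cap genes were also set against each other within each library. The summed level of the 14 core genes divided by that of the 18 cap genes was 1.16 to 1.60 at 10 ng (median 1.36), above 1 in 9 of 9 libraries. At 1 ng it was 0.592 to 1.53 (median 1.01) and above 1 in 5 of 8. At 100 pg it was 0.735 to 1.45 (median 0.995), at 20 pg 0.625 to 1.45 (median 0.762), at 10 pg 0.247 to 1.61 (median 0.873) and at 5 pg 0.0468 to 3.08 (median 1.17). Without replicate 2 the 5 pg median was 0.855. The amounts overlapped, and of the 6 amounts only 10 ng had every library on one side of 1. The 5 H6P libraries, which have no group, lay on the other side, at 0.356 to 0.673 (median 0.574). Core genes have 597 to 867 nt of coding sequence and cap genes 471 to 2982 nt. The part of length in this ratio was not tested.

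The 4 longest members were among the 5 with the lowest level per kilobase at 10 ng, and they were singled out after their values were seen. RPN1, with 2982 nt, encodes a cap scaffold that docks ubiquitin receptors and was at 0 in 8 of 9 libraries of 10 ng, with 2.54 CPM (4 counts) in replicate 5. At 1 ng it was detected in 3 of 8 libraries and reached 9.14 CPM at most. At lower inputs some libraries held more: the highest was 19.5 CPM at 5 pg, 86.9 CPM at 10 pg, 269 CPM at 20 pg and 21.6 CPM at 100 pg. At 20 pg 7 of 10 libraries detected it.

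RPN3, a lid gene of 1572 nt, had no count in any of the 10 libraries of 20 pg. A count of 0 allows up to 1.53 CPM in the deepest and 4.93 CPM in the shallowest of these libraries (3 counts per library; counting error only). At 10 ng it had 0 to 1.68 CPM and at 1 ng 0 to 7.75 CPM. By contrast, 5 pg replicate 9 held 3268 counts of RPN3 (1988 CPM, the most abundant member of that library) and a single 10 pg library held 446 CPM, while the other 9 libraries of 10 pg were at 0.

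RPN2 was detected in all libraries from 20 pg upward. Its median was 273 CPM at 20 pg, 77.5 CPM at 100 pg, 115 CPM at 1 ng and 60.6 CPM at 10 ng. Every grouped library at 10 ng lay at or below 89.99 CPM.

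RPN4, the regulator, was low in most libraries. It ranged at 5 pg from 0 to 299.5 CPM (median 0.367), with 5 of 10 libraries at 0 and replicates 7 and 8 at 299.5 and 210.3 CPM. The medians were 19.4 CPM at 10 pg, 4.52 CPM at 20 pg, 3.70 CPM at 100 pg, 7.53 CPM at 1 ng and 4.33 CPM at 10 ng. At 10 ng it had 0.928 to 13.96 CPM, and 2 of 9 libraries reached 5 counts. Its mean at 10 ng was below that of every other member except RPN1 and RPN3.

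In the 5 H6P libraries, which belong to no group, each of these 4 genes was detected in every library. RPN1 had 851, 351, 351, 206 and 374 CPM in H6P11, H6P12, H6P14, H6P15 and H6P16, in that order. RPN2 had 1015, 627, 498, 1236 and 718 CPM, RPN3 had 274, 157, 178, 296 and 207 CPM, and RPN4 had 352, 512, 506, 722 and 422 CPM. RPT6, for reference, had 298 to 492 CPM there and 484 to 874 CPM at 10 ng. Some shorter members also lay wholly above their 10 ng range. RPN8 (1017 nt) had 473 to 742 CPM in the H6P libraries against 93.0 to 174 CPM at 10 ng. PRE8 (753 nt) had 163 to 272 against 48.2 to 130 CPM. PRE10 (867 nt) lay wholly below, at 188 to 395 against 558 to 973 CPM. How these libraries differ in input or preparation is not stated in their labels. Spike-ins made up 0.00393% to 7.72% of their gene and spike-in counts, against 33.1% to 72.3% in the grouped libraries.

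**Figure D4:**
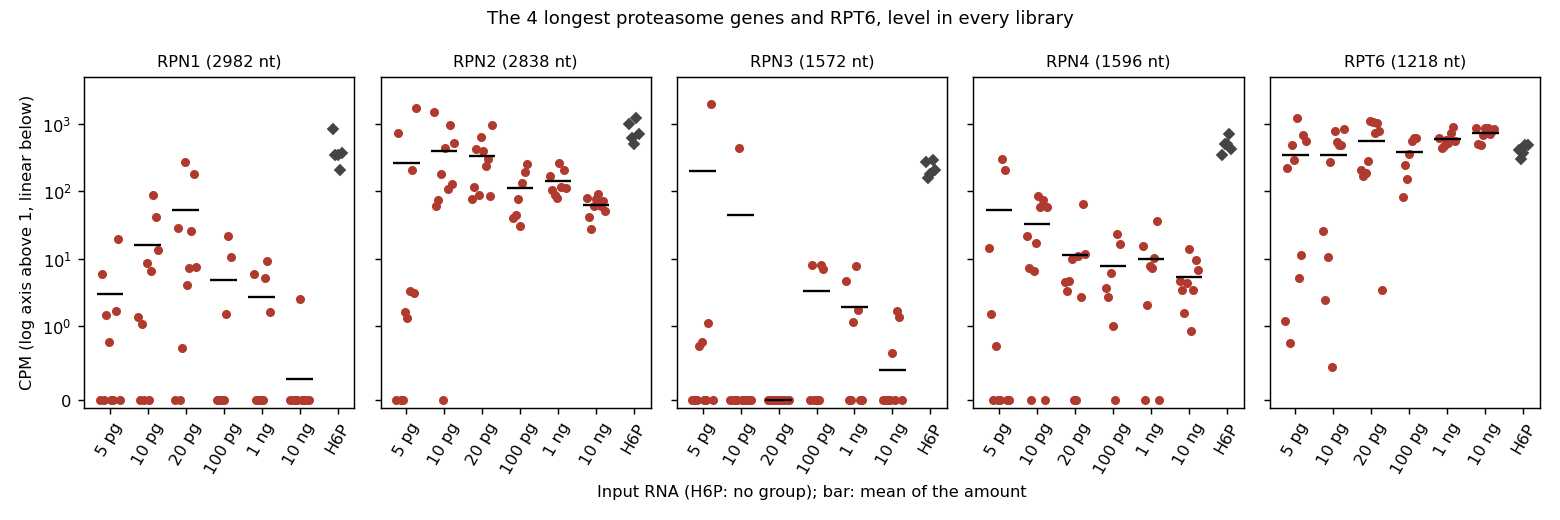
CPM (y axis, log above 1 and linear below) of RPN1, RPN2, RPN3, RPN4 and, for reference, RPT6 in every library by input RNA; bars are means of an amount and diamonds the ungrouped H6P libraries. RPN1 and RPN3 lie at or near 0 in most grouped libraries and RPN4 at a few CPM, while all 3 exceed 150 CPM in each H6P library; RPT6 shows no such gap.

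Between 5 pg and 10 ng, the full span of the series, RPN4 was the only member called. Of 32 members tested, 0 were called higher at 10 ng and 1 lower, with 7.62% of 3492 genes higher and 23% lower as background. RPN4 has 1596 nt of coding sequence. Of all tested genes over 1500 nt 46.3% were called lower and 1.35% higher, with a median log2 fold change of -3.41. The fitted log2 fold change of RPN4 was -4.68 ± 1.69 (SE; edgeR adjusted p = 0.0375), while its medians ran the other way, 0.367 CPM at 5 pg and 4.33 CPM at 10 ng: the fit follows the mean, which at 5 pg was 52.6 ± 109 CPM (SD) through replicates 7 and 8. The call held in 7 of the 19 fits that leave out 1 library and was lost with plain library totals (adjusted p = 0.134), without the filter (adjusted p = 0.0594) and in libraries numbered above 4 (adjusted p = 0.218). With the replicate number as a block the value turned to 1.62 (adjusted p = 0.517). At an unadjusted p under 0.05, 3 members were lower (RPT1, RPN10 and RPN4) and 0 higher, against 34.9% of all genes tested lower and 10.9% higher.

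DESeq2 called 5 members higher at 10 ng (PRE3, RPN5, RPN9, RPN13 and RPN14) and RPN4 lower, where it called 21.4% of all genes tested higher and 17% lower. PRE3 turned from a negative value in edgeR to 2.45 (DESeq2 adjusted p = 0.0451). The median over all genes was -1.64 with edgeR's scaling, -0.42 with library totals and 0.41 with DESeq2, and over the members -0.60, 0.25 and 0.03, so that no direction is given for the members as a group in this comparison.

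Between 5 pg and 20 pg no member was called in either direction by edgeR among 33 tested, with 0% of 4109 genes called higher and 0% lower. At an unadjusted p under 0.05, 1 member (RPT1) was lower and 0 higher, against 10.5% and 14.6% of all genes tested. DESeq2 called 1 (RPN14) higher and 0 lower, against 13.3% and 2.04%. RPT1, a base ATPase, had 3063 CPM in 5 pg replicate 3 and 0 in replicates 1 and 9.

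Between 20 pg and 1 ng none of 33 members was called by edgeR, where 4.33% of 4480 genes were higher and 0.179% lower. At an unadjusted p under 0.05, 14 members were higher at 1 ng and 1 lower, against 10.7% and 5.36% of all genes tested. DESeq2 called 0 higher and 1 lower (RPN1), against 2.57% and 6.79%. The largest fitted rise was that of RPN5, a lid gene (log2 fold change 1.70 ± 0.52, edgeR adjusted p = 0.0587). The members' median was 0.84 against -0.21 over all genes tested, and 29 of 33 lay above the latter. The median over all genes changed with coding length. Under 1000 nt it was 0.41, against 0.92 for 18 members. Between 1000 and 1500 nt it was -0.05, against 0.91 for 12 members. Over 1500 nt it was -0.76, against -0.60 for 3 members. The part of length in this shift was not tested.

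The summed level of the 34 genes spanned more than a 10-fold range at the lowest input and less than 2-fold at the highest. With 5 pg it was 1137 to 17722 CPM (mean 8055 ± 5385, SD), and the mean was 7544 ± 5449 (n = 9) without replicate 2. The means were 7405 ± 3705 CPM with 10 pg, 7242 ± 2962 with 20 pg and 5655 ± 3302 with 100 pg. With 1 ng the mean was 7067 ± 1499 and with 10 ng 9049 ± 1620 CPM. The summed level was not tested between amounts.

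The summed level of libraries numbered 1 to 4 lay wholly below that of the others at 3 of the amounts. At 10 pg they held 1719 to 5953 CPM against 7725 to 13851 CPM in libraries with higher numbers, at 20 pg 2872 to 4584 against 8224 to 10953, and at 100 pg 3063 to 3299 against 6595 to 11016, with no overlap. At 5 pg (1137 to 12654 against 3212 to 17722), 1 ng (5425 to 7699 against 5754 to 9957) and 10 ng (6413 to 9400 against 9368 to 10852) the sets overlapped. At 100 pg, where 16 of 34 members had every library above number 4 higher than every library of the first set, this held for 34.6% of 4542 genes. At 20 pg the same count was 4 of 34 against 5.10% of 4721 genes, at 10 pg 4 of 34 against 3.51% of 4014, and at 10 ng 7 of 34 against 5.13% of 3604. For 1 ng the order was reversed, with 1 of 34 members against 8.23% of 4362 genes. For 5 pg it was 0 of 34 against 0.418% of 3111 genes. At 100 pg the mean of libraries above number 4 was the higher one for all 34 members and for 4087 of 4542 genes. At 10 ng it was the higher one for all 34 members and for 2978 of 3604 genes. This held for 26 members and 3552 of 4362 genes at 1 ng, and for 27 members and 2026 of 3111 genes at 5 pg. For 10 pg and 20 pg it held for 31 members each, and for 3170 of 4014 and 3877 of 4721 genes. What the numbers stand for was not tested.

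**Figure D5:**
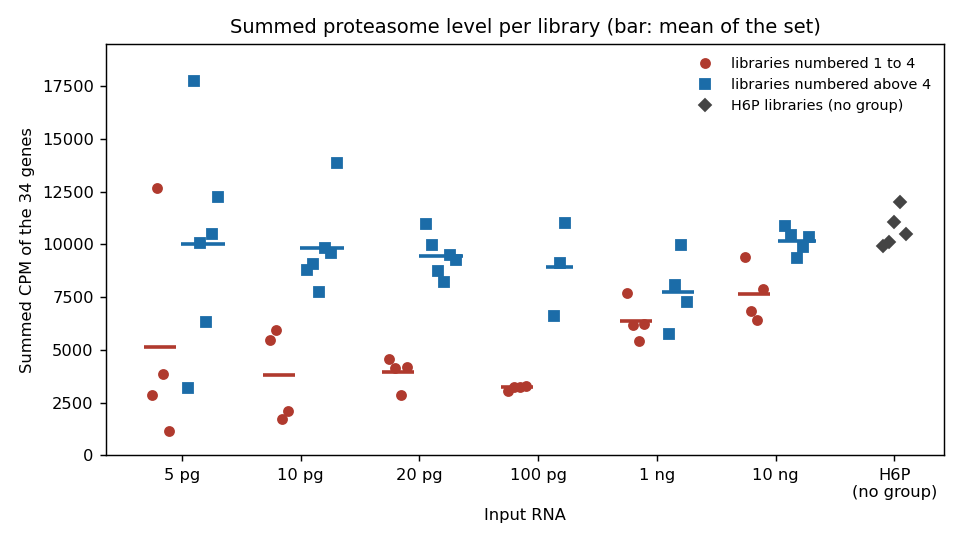
Summed CPM of the 34 genes (y axis, from 0) in each library by input RNA, circles for libraries numbered 1 to 4, squares for higher numbers, bars the mean of each set, and diamonds the ungrouped H6P libraries. The sets do not overlap at 10, 20 and 100 pg, and the H6P libraries lie at 9906 to 12026 CPM.

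Genes that work with the proteasome were also compared from 1 ng to 10 ng; these lists were drawn from textbook knowledge, and their counts stand beside the 15.9% of all tested genes called higher and 20.8% lower, or 37.03% higher under 1000 nt and 45.8% lower over 1500 nt. Of 8 assembly chaperones tested 3 were called higher and 0 lower: ADD66 (log2 fold change 1.28 ± 0.33, edgeR adjusted p = 0.00662), UMP1, the maturation factor of the core (0.83 ± 0.25, 0.014), and TMA17 (0.65 ± 0.25, 0.0459). SEM1, the lid subunit with 270 nt, rose from 2.14 ± 1.48 CPM (SD, n = 8) to 17.9 ± 10.3 CPM (SD, n = 9), or 3.17 ± 0.59 (SE) on the log2 scale, with an edgeR adjusted p of 0.000806. BLM10, an activator that caps the core and has 6432 nt, fell by 1.68 on the log2 scale (SE 0.47, edgeR adjusted p = 0.0094). SEM1 and BLM10 were the only genes called among 6 associated factors tested.

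Among ubiquitin and its activating and conjugating enzymes 5 of 9 were called higher and 0 lower, namely UBC1, UBC4, UBC5, UBC7 and UBC13, all conjugating enzymes of at most 648 nt. UBI4, the stress-induced polyubiquitin gene, stood at 775 ± 199 CPM (SD) at 1 ng and 598 ± 221 CPM (SD) at 10 ng and was not called (edgeR adjusted p = 0.421). Among ligases and shuttle factors 0 of 9 were called higher and 3 lower (UFD2, UFD4 and HRD1), and of 6 genes of the Cdc48 segregase complex 0 and 2, CDC48 itself (-0.46 ± 0.18, edgeR adjusted p = 0.0473) and DOA1. Of 4 regulators of RPN4, HSF1 was called lower (-1.92 ± 0.56, edgeR adjusted p = 0.0116) and the others were not called. All genes called higher in these lists were under 1000 nt and all called lower were over 1500 nt.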

How the data were processed

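RNA-seq counts per gene of 59 libraries were used, as raw counts that the authors deposited, 1 file per library. Per the study's methods and the submitters' processing notes, reads were aligned with STAR 2.5.2 to the R64 genome; HTSeq and RSEM 1.2.31 are named there too. The libraries were primed with oligo-dT, the kit does not mark strand, and no molecular identifiers were used, so PCR copies are not independent molecules and limits cover counting error only. All 34 members matched the RefSeq R64 annotation by locus tag, and none overlapped another annotated gene. Summary lines that name no gene (2.84% to 12.1% of a grouped library's counts) and spike-ins were left out of totals. No 2 libraries held identical counts.

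Groups were taken from the titles. Genes that reached 5 counts in 20% or more of the libraries of a comparison were tested with edgeR 4.0.16 (quasi-likelihood, TMM scaling, R 4.3.3), p-values being adjusted by Benjamini-Hochberg over all genes tested. The script was checked on simulated counts. Alternatives were DESeq2 1.42.0, library totals without TMM, no filter, a filter at 50% of libraries, the replicate number as a block, subsets by library number, each library left out, other detection limits and thinning to 290000 counts (20 draws). Named genes were the 4 members highest per kb at 10 ng, PRE3, PUP1, PRE2, RPN4 and the 6 largest called rises and falls; others are named where counts are small and were chosen after their values were seen. Members and lists were chosen with earlier results of these data known. Promoters were read from the RefSeq R64 genome.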

Additional observations from a re-analysis of the deposited data

Results flagged for a closer look

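Flags were sought in 84 sets of libraries of 1 amount (the number of members detected, the summed level, the core to cap ratio and the level of 11 named genes, at each of 6 amounts). In 15 sets a single library lay farther from the rest than Dixon's limit allows. The limit is set for about 1 in 20 sets of normally distributed values. CPM at low input were skewed and some named genes were chosen by calls in these data, so 15 of 84 does not measure an excess. All 15 concerned single genes. At 5 pg these were PRE10 in replicate 2 (5624 CPM), RPN13 in replicate 2 (119 CPM), PRE2 in replicate 6 (4651 CPM), SCL1 in replicate 8 (1552 CPM), and PUP1 (2586 CPM) and RPN2 (1736 CPM) in replicate 10, each the highest of its amount. PRE2 was set apart at 4 further amounts, always by a high library: 10 pg replicate 10 (1109 CPM), 100 pg replicate 10 (439.7 CPM), 1 ng replicate 9 (600.2 CPM) and 10 ng replicate 5 (706 CPM). The others were PRE1 in 10 pg replicate 8 (800.1 CPM), PUP1 in 20 pg replicate 10 (817 CPM), RPN4 in 20 pg replicate 9 (65.4 CPM) and 1 ng replicate 9 (36.6 CPM), and PRE1 in 1 ng replicate 5, the only low one (35.6 CPM).

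The H6P libraries, which entered no comparison, held RPN1 at 206 CPM or more, RPN3 at 157 CPM or more and RPN4 at 352 CPM or more, against a limit of 0.468 CPM that 3 counts give in the shallowest of them.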

How the results depend on the processing

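Calls from 1 ng to 10 ng kept their direction throughout but not their number: 12 members higher became 10 with DESeq2, 7 with library totals, 12 without the filter, 8 with the 50% filter, 6 in libraries numbered 1 to 4 and 0 in those above 4 (lower: 1, and 0 above 4), and 7 to 17 when 1 library was left out (lower: 1 in each). From 5 pg to 10 ng the 0 higher became 5 with DESeq2 and 2 above number 4, and 0 to 2 with 1 library left out. The 1 lower became 0 with library totals, with the 50% filter and in either number set. Without the filter 2 members were lower, neither of them RPN4 (edgeR adjusted p = 0.0594). The number lower was 0 to 2 with 1 library left out. It was 0 without 5 pg replicates 3 or 4 or any 10 ng library, and 2 without 5 pg replicates 2, 8 or 9; the higher count was 1 without 5 pg replicate 7 and 2 without replicate 9. From 5 pg to 20 pg DESeq2 gave 1 higher and the set above 4 gave 2, and leaving 1 library out gave 0. From 20 pg to 1 ng DESeq2 gave 1 lower, no filter 2 higher, and the set 1 to 4 gave 2 higher and 1 lower; 1 library left out gave 0 to 2 higher (2 without 20 pg replicate 3 or 1 ng replicate 9, 1 without 20 pg replicates 4, 7, 9 or 10) and 0 lower. PRE3 from 5 pg to 10 ng changed sign with DESeq2 (2.45). The share of all genes called is not given for most of these settings or for the replicate block below. Whether the members moved more than all genes is thus not shown. The causes were not tested.

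The labels tie libraries of the same number by nothing but that number, and not every pair correlated above 0.1: correlations of their deviations were -0.106 to 0.0411 (5 pg and 10 ng), -0.0441 to 0.112 (5 and 20 pg), -0.011 to 0.109 (20 pg and 1 ng) and -0.00387 to 0.549 (1 and 10 ng), and in the last, 6 of 8 pairs were above 0.1 and numbers 1 to 5 correlated best with their own number, a hint of shared deviation in the data and not in the design. With the replicate block the counts were 15 higher and 1 lower from 1 ng to 10 ng, 1 higher and 0 lower from 5 pg to 10 ng, 0 from 5 to 20 pg and 1 higher from 20 pg to 1 ng, and RPN4 from 5 pg to 10 ng changed sign (1.62).

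Members detected on average became 24.9 at 5 pg and 32.4 at 10 ng with at least 1 count; 29.9 at 20 pg and 29.7 at 100 pg with at least 10 counts; and 28.6 at 20 pg, 28.1 at 100 pg and 30.5 at 1 ng after thinning. Without the 10 most abundant genes in the total the mean summed CPM was 10582 at 20 pg, 9774 at 100 pg, 11730 at 1 ng and 14251 at 10 ng. In libraries numbered 1 to 4 it was 3939 at 20 pg. Leaving out 5 pg replicate 2 was chosen after the data were seen. Low counts limit RPN1, RPN3 and RPN4.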

Other observations

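The H6P libraries allow the 4 long members to be set among genes of like length, as a description with no test. Of 589 genes over 1500 nt with at least 100 CPM in each of the 5 H6P libraries, 6.79% were detected in no 10 ng library and 37.9% in every one. RPN1 and RPN3 were among the former, RPN2 among the latter, and RPN4 was detected in 2 of 9. Of 312 genes of 1000 to 1500 nt that met the same limit, 2.56% were detected in no 10 ng library, and of 229 genes under 1000 nt 1.31%; of the 20 members in these classes none was. The H6P libraries summed to 9906 to 12026 CPM over the 34 genes and detected 33 or 34 of them.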
